A study of Mus musculus with 14 samples.

Results

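Complexes III and IV of the mitochondrial respiratory chain are described here through 36 nuclear genes, out of 52550 genes in the deposited count table. They are listed by gene symbol. The list comprises 9 subunits of complex III, 1 gene for cytochrome c (Cycs), 15 subunits of complex IV or their isoforms, and 11 assembly factors of complex IV. Of the 36, 35 passed the filter on low counts and were tested. The exception was Cox4i2, with 32 reads in all mice together.

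The counts came from the triceps of 14 male mice, sequenced from the 3′ ends of polyadenylated transcripts. By the series' design text, WT mice and FLExDUX4 littermates either ran voluntarily on a wheel for 6 weeks or were kept as controls without running, which gave 3 WT controls, 3 FLExDUX4 controls, 4 WT runners and 4 FLExDUX4 runners. FLExDUX4 mice carry a human DUX4 transgene that Cre can switch on, and the title of the series presents them as a model of facioscapulohumeral muscular dystrophy and asks about aerobic exercise. The labels name no Cre, and they give neither the ages of the mice nor the distances run.

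Complex III takes electrons from ubiquinol and passes them through cytochrome c1 to the mobile carrier cytochrome c. Complex IV, cytochrome c oxidase, takes them from cytochrome c and reduces oxygen to water, and both complexes pump protons as they work. Their catalytic cores are made partly in the mitochondrion, whereas the genes described here are transcribed in the nucleus. Muscle holds more of both complexes in oxidative fibres than in glycolytic ones, and endurance training is known to raise them. Several subunits of complex IV exist as a form of striated muscle (Cox6a2, Cox7a1, Cox8b) and a form found in most tissues (Cox6a1, Cox7a2, Cox8a).

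The windows upstream of such isoform pairs are shown first, because both genes of a pair serve the same position in complex IV and can be compared in every mouse. RefSeq promoter windows on GRCm38.p6 were found for 27 of the 36 members, and the part before the annotated start is printed, 250 bases from 5′ to 3′ along the gene's strand. In the first 4 sequences the capitals mark each CG dinucleotide. Cox7a1 lies at chr7:30183921-30184170 on the plus strand, Cox7a2 at chr9:79759854-79760103 on the minus strand, Cox8b at chr7:140900447-140900696 on the minus strand and Cox8a at chr19:7217617-7217866 on the minus strand.
Cox7a1: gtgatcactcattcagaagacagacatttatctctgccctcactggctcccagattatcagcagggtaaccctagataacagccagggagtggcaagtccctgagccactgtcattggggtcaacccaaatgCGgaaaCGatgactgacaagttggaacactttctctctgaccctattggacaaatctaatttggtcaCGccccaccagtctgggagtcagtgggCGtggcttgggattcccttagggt
Cox7a2: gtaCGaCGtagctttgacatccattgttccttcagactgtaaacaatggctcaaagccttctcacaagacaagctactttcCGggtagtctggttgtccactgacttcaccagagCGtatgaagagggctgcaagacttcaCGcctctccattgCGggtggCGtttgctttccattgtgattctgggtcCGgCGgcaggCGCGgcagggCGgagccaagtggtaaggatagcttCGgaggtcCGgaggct
Cox8b: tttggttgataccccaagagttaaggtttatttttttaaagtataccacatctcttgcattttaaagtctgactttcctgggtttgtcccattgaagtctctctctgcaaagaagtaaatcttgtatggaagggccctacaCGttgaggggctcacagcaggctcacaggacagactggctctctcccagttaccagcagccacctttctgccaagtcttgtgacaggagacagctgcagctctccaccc
Cox8a: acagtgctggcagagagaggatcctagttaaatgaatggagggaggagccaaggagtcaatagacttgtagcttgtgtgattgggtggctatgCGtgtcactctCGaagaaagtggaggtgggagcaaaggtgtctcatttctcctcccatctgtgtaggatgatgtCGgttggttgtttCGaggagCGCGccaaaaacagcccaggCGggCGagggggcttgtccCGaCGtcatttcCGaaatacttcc
In the sequence of Cox6a1, at chr5:115348959-115349208 on the minus strand, the capitals mark a palindromic NRF-1 motif and, near the 3′ end, an ETS motif on the opposite strand.
Cox6a1: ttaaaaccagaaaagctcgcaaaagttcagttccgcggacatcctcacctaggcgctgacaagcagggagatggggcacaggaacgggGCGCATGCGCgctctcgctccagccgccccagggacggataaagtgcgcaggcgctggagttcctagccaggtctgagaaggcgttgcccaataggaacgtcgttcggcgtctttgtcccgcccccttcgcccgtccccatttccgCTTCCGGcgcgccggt

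The 250 bases held 4 CG dinucleotides in Cox7a1 and 1 in Cox8b, both muscle forms, against 14 in Cox7a2 and 11 in Cox8a. Cox6a1 held 26, and its muscle form Cox6a2 had no window. The median was 14 over the 27 members, with a range of 1 to 36. Over all 32851 RefSeq windows the median was 6, and 44.4% of them held at most 4. Each member had 1 window here, the one with the lowest coordinate, whereas every window of a gene counted among the 32851. Shares of members and of all windows thus come from unlike sets. In 24 of the 27 member windows, the bases after the start were found in the first part of an annotated transcript of the gene. Motifs were searched on both strands of the whole window, which ends 50 bases after the start. The ETS motif CCGGAAG, the core bound by GABP (also called NRF-2), was in 12 of 27 member windows, or 44.4%, and in 8.86% of all windows. It was found in 7 of 10 assembly factors and in 5 of 16 subunits: Cox6a1, Cox6b1, Cox8a, Uqcr11 and Uqcrh. The palindromic NRF-1 motif, which is the longer capital run printed for Cox6a1, was in Cox6a1 and Uqcrc1, 7.41% of the members, and in 0.971% of all windows. The YY1 motif AAGATGGCG was in Cox10 alone, 3.70% of the members and 1.40% of all windows. The ERR half-site AAGGTCA was in 0 of 27 member windows and 4.72% of all windows, and TATAAA in 7.41% and 13.6%. Of the members called below, Cox6b1 held an ETS match and Cox8b a TATAAA match, and Cox5b, Cox7a1 and Cox7b held none of the 5 motifs, while Uqcrq, Cyc1 and Cox4i1 had no window.

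Libraries held 3315921 to 7089226 counts, and a level of 1 CPM (counts scaled to a common library size, with TMM factors) stood for 3.32 to 7.77 reads. Muscle identity was plain, with the summed Acta1, Ckm, Mb, Ttn and Tnnt3 between 72387 and 102774 CPM in every mouse. Cardiac markers were nearly absent, with 0 counts of Nppa and 28 of Myh6 in all mice. Slow fibre genes split the runners. Their mean log2 level over 12 genes was 5.88, 2.54, 3.60 and 5.77 in WT runners 1 to 4 and 5.74, 6.34, 4.80 and 1.67 in FLExDUX4 runners 1 to 4, against 1.75 to 2.16 in WT controls and 3.59 to 5.13 in FLExDUX4 controls. By this mean, FLExDUX4 running 4 stood below every control. Its summed level over the slow fibre list, 69.1 CPM, lay above the 50.2 to 66.3 CPM of WT controls. The counts and medians over the members for running are also given without this mouse.

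Running in WT mice went with higher transcript levels of every tested subunit of complexes III and IV. All 23 were above 0 on the log2 scale, with a median difference of 0.55. At an adjusted p under 0.05, 6 of them were called higher: Cox7a1, Uqcrq, Cox5b, Cyc1, Cox6b1 and Cox7b. No member was called lower. The 11 assembly factors, whose products insert haem and copper and put the subunits together, had a median difference of 0.31 and none was called, and cytochrome c differed by 0.30 ± 0.16 (SE).

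By edgeR's quasi-likelihood test with Benjamini-Hochberg adjustment over 11088 genes, these 6 of 35 tested members compare with 0.397% of all tested genes called higher and 0.0992% called lower. The median over all tested genes was 0.01. Each of the 23 subunits had an unadjusted p under 0.05, as had 698 of the 11088 genes in the same direction. In 21 of the 23, the lowest WT runner lay above the highest WT control, which held for 5.74% of all tested genes, with 4.56% separate in the other direction. The exceptions were Uqcrfs1 and Uqcr10, both of complex III.

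The count of 6 was 13 with DESeq2 and 0 with limma-voom. It was also 0 without any one of the 3 WT controls, WT running 1, WT running 4, FLExDUX4 running 1 or FLExDUX4 running 3. It was 1 without any one of the 3 FLExDUX4 controls and 7 without WT running 2. Without WT running 3 it was 12, and without FLExDUX4 running 2 or 4 it was 10. The median over the 35 tested members stayed between 0.42 and 0.57 with 1 mouse left out, and was 0.50 without FLExDUX4 running 4. Among all tested genes, 44 were called higher in the main fit and 0, 2 and 9 without WT controls 1 to 3. They numbered 8, 37, 138 and 2 without WT runners 1 to 4. Without FLExDUX4 controls 1 to 3 they numbered 15, 19 and 30. Their counts were 11, 72, 13 and 91 without FLExDUX4 runners 1 to 4.

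**Figure D1:**
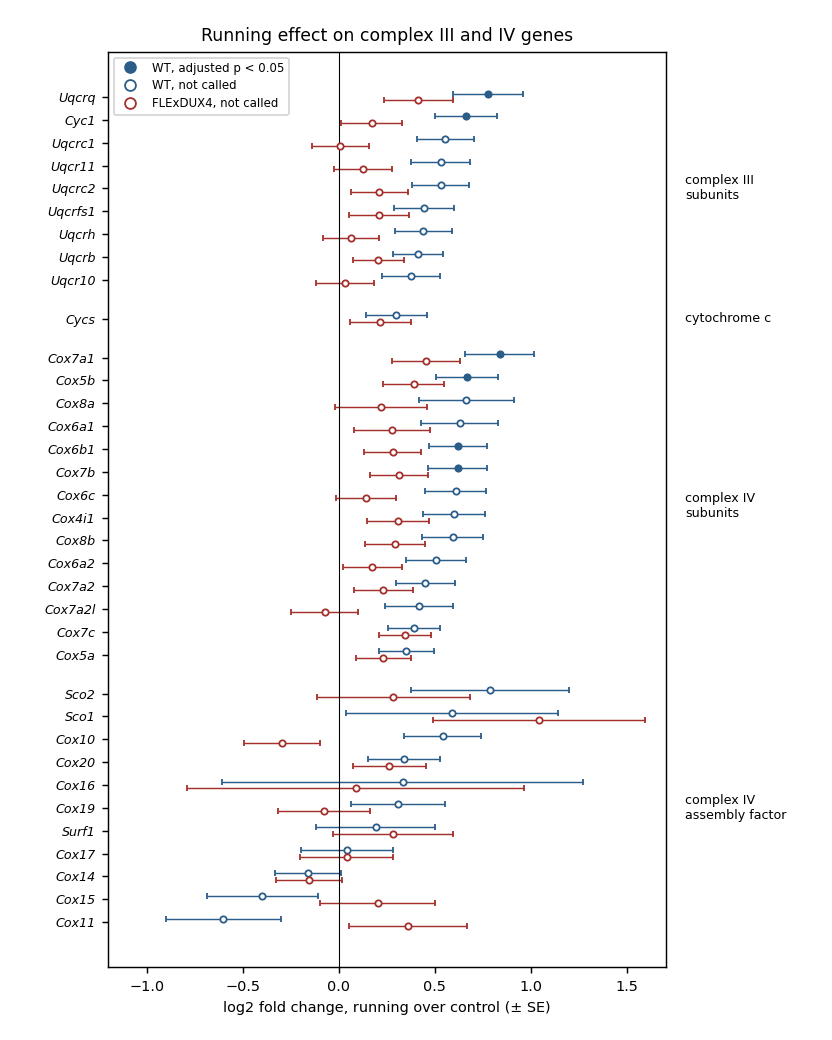
Log2 fold change of runners over controls (x axis, points with SE bars) for the 35 tested genes, by role, in WT (blue) and FLExDUX4 mice (red); filled points have an adjusted p under 0.05. All 23 subunits lie to the right of 0 in WT mice, and each has a larger value in WT than in FLExDUX4 mice, while the assembly factors scatter on both sides of 0.

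Among the 9 subunits of complex III, differences in WT mice ran from 0.37 to 0.77 with a median of 0.53. Uqcrq (ENSMUSG00000044894, chromosome 11, 53427922 to 53430831, minus strand), a small subunit beside cytochrome b, was at 519, 602 and 580.1 CPM in WT controls, 969.7, 789.7, 812 and 1306 in WT runners, 622, 740.3 and 613 in FLExDUX4 controls and 836, 1191, 877 and 606 in FLExDUX4 runners. Every WT runner exceeded every WT control, and FLExDUX4 running 4 was the lowest of the 7 FLExDUX4 mice. The difference in WT mice was 0.77 ± 0.18 (adjusted p = 0.046) and in FLExDUX4 mice 0.41 ± 0.18 (adjusted p = 0.71), or 0.23 without FLExDUX4 running 2 and 0.56 without FLExDUX4 running 4.

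Cyc1 (ENSMUSG00000022551, chromosome 15, 76343523 to 76346260, plus strand), which encodes cytochrome c1, the subunit that hands electrons to cytochrome c, was at 235, 223 and 237 CPM in WT controls, 449.8, 305, 285 and 425 in WT runners, 256, 270.3 and 304 in FLExDUX4 controls and 323, 364, 326 and 235 in FLExDUX4 runners. WT runners 1 and 4 were far above the rest, and FLExDUX4 running 4 was within the range of WT controls. The difference was 0.66 ± 0.16 in WT mice (adjusted p = 0.0458) and 0.17 ± 0.16 in FLExDUX4 mice (adjusted p = 0.902), or 0.09 without FLExDUX4 running 2 and 0.29 without FLExDUX4 running 4. The other 7 subunits of complex III, which include the core proteins Uqcrc1 and Uqcrc2 and the Rieske iron-sulfur protein Uqcrfs1, differed by 0.37 to 0.55 in WT mice and were not called.

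Among the 14 tested subunits of complex IV, differences in WT mice ran from 0.35 to 0.84 with a median of 0.60. Cox7a1 (ENSMUSG00000074218, chromosome 7, 30184144 to 30186078, plus strand), the muscle form of subunit VIIa, had the highest value. It was at 336, 295 and 317 CPM in WT controls, 558, 473, 446 and 779 in WT runners, 329.8, 387 and 397 in FLExDUX4 controls and 523, 642, 522 and 350.0 in FLExDUX4 runners. WT running 4 was the highest of all 14 mice, and 3 of the 4 FLExDUX4 runners lay above all their controls. The difference was 0.84 ± 0.18 in WT mice (adjusted p = 0.0388) and 0.45 ± 0.18 in FLExDUX4 mice (adjusted p = 0.706), or 0.32 without FLExDUX4 running 2 and 0.60 without FLExDUX4 running 4.

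Cox5b (ENSMUSG00000061518, chromosome 1, 36691449 to 36693681, plus strand), a zinc-binding subunit on the matrix side, was at 249, 323 and 293 CPM in WT controls, 458, 424, 382 and 569 in WT runners, 334, 349 and 324 in FLExDUX4 controls and 423, 558, 467 and 312 in FLExDUX4 runners. The WT groups did not overlap, and FLExDUX4 running 4 was below its 3 controls while the other 3 runners were above them. The difference was 0.67 ± 0.16 in WT mice (adjusted p = 0.0458).

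Cox6b1 (ENSMUSG00000036751, chromosome 7, 30616861 to 30626151, minus strand), a subunit facing the intermembrane space, was at 316, 285 and 314 CPM in WT controls, 563, 403, 370.1 and 535 in WT runners, 368, 338 and 355 in FLExDUX4 controls and 427, 512, 424 and 357 in FLExDUX4 runners. WT runners 1 and 4 again led their group. The difference was 0.62 ± 0.15 in WT mice (adjusted p = 0.046).

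Cox7b (ENSMUSG00000031231, chromosome X, 106015700 to 106022450, plus strand), a small membrane-spanning subunit, was at 278, 299 and 348 CPM in WT controls, 462, 404, 442 and 585 in WT runners, 337, 391 and 318 in FLExDUX4 controls and 441, 514, 437 and 342 in FLExDUX4 runners. Here too the WT groups did not overlap, and FLExDUX4 running 4 lay within the range of its controls. The difference was 0.62 ± 0.15 in WT mice (adjusted p = 0.0483).

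Averaged over genotype, which uses all 14 mice, edgeR called 7 members higher and 0 lower. Cox7a1 differed by 0.65 ± 0.13 (adjusted p = 0.0122), Cox5b by 0.53 ± 0.11 (adjusted p = 0.0197) and Uqcrq by 0.59 ± 0.13 (adjusted p = 0.025). Cox7b was at 0.47 ± 0.11 (adjusted p = 0.0284) and Cox6b1 at 0.45 ± 0.11 (adjusted p = 0.0328). Cox8b was at 0.44 ± 0.11 (adjusted p = 0.0406) and Cox4i1 at 0.45 ± 0.11 (adjusted p = 0.0419). Of all tested genes, 0.55% were called higher and 0.307% lower in this contrast. The 23 subunits were all above 0, with a median of 0.33 for complex III and 0.44 for complex IV, and 21 of them had an unadjusted p under 0.05, as had 761 of the 11088 genes in the same direction. Cyc1, called in WT mice, was at 0.42 ± 0.11 (adjusted p = 0.0616).

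Cox4i1 (ENSMUSG00000031818, chromosome 8, 120668222 to 120674207, plus strand), the common form of subunit IV, the largest nuclear-encoded subunit, was at 543, 534 and 570.2 CPM in WT controls, 942, 697, 645 and 1037 in WT runners, 602, 619 and 619 in FLExDUX4 controls and 758, 949, 776 and 554 in FLExDUX4 runners. Of the 8 runners, 7 exceeded all 6 controls. Cox8b (ENSMUSG00000025488, chromosome 7, 140898945 to 140900446, minus strand), the muscle form of subunit VIII, was at 499, 555 and 544 CPM in WT controls, 808, 663, 705 and 1033 in WT runners, 531, 703 and 586 in FLExDUX4 controls and 668, 913, 778 and 610.1 in FLExDUX4 runners. FLExDUX4 control 2 overlapped the lower runners of both genotypes.

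The count of 7 was 11 with DESeq2 and 5 with limma-voom. Without WT controls 1 to 3 it was 1, 3 and 3, and without FLExDUX4 controls 1 to 3 it was 0, 5 and 2. Without WT runners 1 to 4 it was 3, 9, 12 and 1. Without FLExDUX4 runners 1 to 4 it was 3, 2, 3 and 15. The median over the 35 tested members, 0.33, was 0.38 without FLExDUX4 running 4. Among all tested genes, 61 were called higher in the main fit, 174 of 7003 with DESeq2 and 37 with limma-voom. With 1 mouse left out, these genes ranged from 9 without FLExDUX4 control 1 to 196 without FLExDUX4 running 4.

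**Figure D2:**
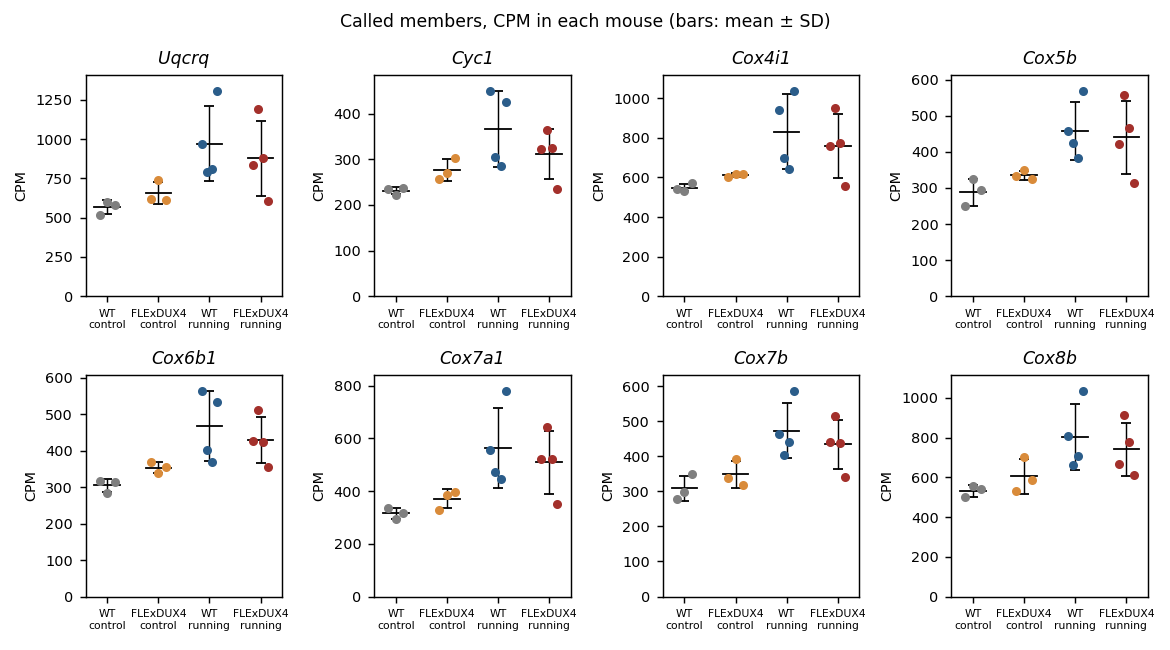
CPM in each mouse (y axis, from 0) for the 8 genes called in at least 1 contrast, by group (x axis), with the mean and SD of each group as bars. The 3 WT controls lie below the 4 WT runners in each panel. FLExDUX4 running 4 lies within or below the range of its controls in each panel. For Cox8b, FLExDUX4 running 1 also lies within that range.

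The isoform pairs of complex IV were compared within each mouse as the log2 ratio of their read counts, with 0.5 added to each count. Such a ratio also depends on how well each 3′ end is captured, so its change between groups is the quantity of interest. Over 20 tests, no pair passed after adjustment. The smallest p that the exact permutation test can reach was 0.000816 for running averaged over genotype. It was 0.1 for genotype in controls and 0.0286 in the other contrasts. A test in any contrast but the average could thus not pass on its own after adjustment over 20, and nothing is concluded from it. The Cox7a1 to Cox7a2 ratio came closest, at 0.29 higher in runners averaged over genotype (exact permutation p = 0.00735, 2-sided, adjusted p = 0.147).

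Cox7a2 was at 389.6, 380.5 and 402 CPM in WT controls, 519, 439, 499.8 and 676 in WT runners, 424, 468 and 403 in FLExDUX4 controls and 455, 622, 555 and 398 in FLExDUX4 runners. Its own difference in WT mice was 0.45 ± 0.15 (adjusted p = 0.193), against 0.84 ± 0.18 for Cox7a1. The log2 ratio of Cox7a1 to Cox7a2 was -0.21, -0.37 and -0.34 in WT controls, 0.10, 0.11, -0.16 and 0.20 in WT runners, -0.36, -0.28 and -0.02 in FLExDUX4 controls and 0.20, 0.05, -0.09 and -0.18 in FLExDUX4 runners. All 4 WT runners were above all 3 WT controls, and the FLExDUX4 groups overlapped. The difference was 0.37 in WT mice (exact permutation p = 0.0571) and 0.21 in FLExDUX4 mice (exact permutation p = 0.171). The smallest p that 4 against 3 mice can reach is 0.0286.

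In the other 2 pairs with a muscle form, both genes had differences of similar size. Cox6a2, the muscle form of subunit VIa, was at 1089, 1514 and 1359.6 CPM in WT controls, 2140.0, 1743, 1558 and 2055 in WT runners, 1790.4, 1653 and 1428 in FLExDUX4 controls and 1740.1, 2172, 1932 and 1488 in FLExDUX4 runners. Cox6a1, the form of other tissues, was at 19.8, 31.3 and 29.5 CPM in WT controls, 44.7, 35.9, 41.6 and 43.5 in WT runners, 35.1, 30.7 and 32.4 in FLExDUX4 controls and 29.5, 49.3, 38.5 and 41.3 in FLExDUX4 runners. Differences in WT mice were 0.50 ± 0.15 and 0.63 ± 0.20, and the log2 ratio differed by -0.11 averaged over genotype (exact permutation p = 0.324). Cox8a was at 20.8, 18.1 and 25.9 CPM in WT controls, 44.9, 25.9, 31.7 and 34.0 in WT runners, 28.0, 15.5 and 35.8 in FLExDUX4 controls and 35.96, 36.6, 22.0 and 29.4 in FLExDUX4 runners. The Cox8b to Cox8a ratio differed by -0.04 (exact permutation p = 0.884), and its sign changed when single mice were left out.

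Cox4i2, the hypoxia-responsive form of subunit IV known from lung, was hardly detected. It had 1, 1 and 2 reads in WT controls, 2, 1, 3 and 4 in WT runners, 0, 2 and 8 in FLExDUX4 controls and 1, 0, 6 and 1 in FLExDUX4 runners. With so few reads its ratio to Cox4i1 could not be resolved (-0.45, exact permutation p = 0.497).

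**Figure D3:**
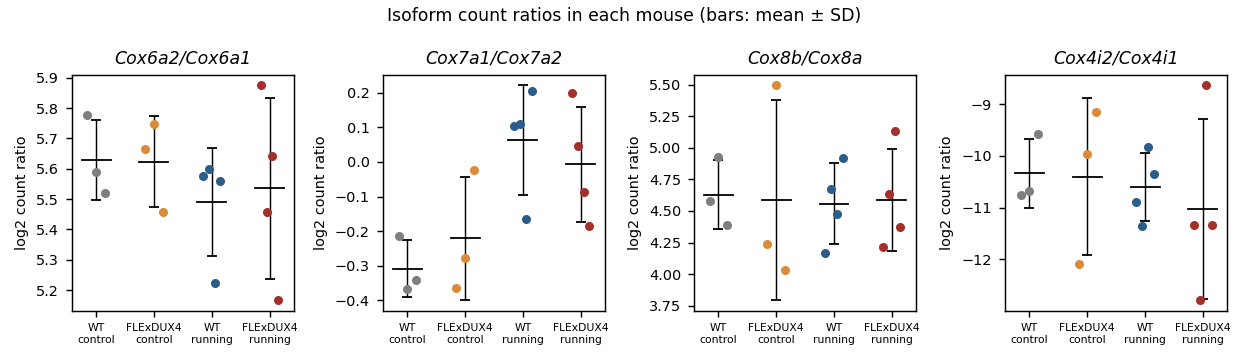
Log2 ratio of read counts (y axis, scale not starting at 0) for the 4 isoform pairs in each mouse, by group (x axis), with the mean and SD of each group as bars. The Cox7a1 to Cox7a2 ratio is higher in all 4 WT runners than in the WT controls, and the other 3 pairs overlap between groups.

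Cycs, the somatic cytochrome c, was at 66.5 to 86.4 CPM in WT controls, 74.4 to 106 in WT runners, 69.2 to 83.3 in FLExDUX4 controls and 81.1 to 107 in FLExDUX4 runners, and it was called in no contrast. Processed copies of Cycs and of some small subunits exist in the mouse genome, and how reads with several alignments were counted was not given in the sources used here.

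The assembly factors of complex IV gave more scattered and less precise values, and their difference from the subunits was not tested. In WT mice, 8 of 11 were above 0 and 3 below, with values from -0.60 to 0.79 and standard errors of 0.17 to 0.94, and the groups overlapped for all 11. Their mean levels in WT controls ran from 1.13 CPM for Cox16 to 76.2 CPM for Cox14, a translation and assembly factor, so low counts limited several of them. Cox10, which makes the first step from haem b to haem A, was the only one with an unadjusted p under 0.05 in WT mice (0.54 ± 0.20, adjusted p = 0.263). It was at 50.9, 45.6 and 36.1 CPM in WT controls, 83.9, 61.1, 47.9 and 65.1 in WT runners, 59.5, 66.1 and 68.8 in FLExDUX4 controls and 40.2, 77.8, 43.7 and 50.0 in FLExDUX4 runners. In FLExDUX4 mice it was lower in 3 of the 4 runners than in every control. Cox11, a copper-delivery factor, was at 14.9 CPM ± 3.95 (SD, n = 3) in WT controls, 9.74 ± 2.03 (n = 4) in WT runners, 10.2 ± 3.06 (n = 3) in FLExDUX4 controls and 13.1 ± 3.32 (n = 4) in FLExDUX4 runners, the reverse arrangement. The copper chaperones Sco1 and Sco2 differed by 0.59 ± 0.55 and 0.79 ± 0.41 in WT mice, and Surf1, an early assembly factor, by 0.19 ± 0.31.

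Running in FLExDUX4 mice went with smaller differences, and 0 members were called. Of the 23 subunits, 22 were above 0, with a median of 0.22, and the exception was Cox7a2l, a factor of respiratory supercomplexes (-0.07 ± 0.17). By edgeR's test, 5 members had an unadjusted p under 0.05: Cox7a1, Cox7c, Cox5b, Uqcrq and Cox7b, between 0.31 and 0.45. Of all 11088 genes, 400 had such a p in the same direction. DESeq2 and limma-voom also called 0 members, and 0 of all 11088 genes were called in either direction (0% higher, 0% lower).

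In no subunit were the groups separate, against 3.72% of all tested genes with every FLExDUX4 runner above every control and 3.45% with every one below. FLExDUX4 running 4 was the lowest runner of its genotype for 20 of the 23 subunits, and FLExDUX4 running 2 the highest for 20. Without FLExDUX4 running 4, the median over the 35 tested members moved from 0.22 to 0.30, and without FLExDUX4 running 2 to 0.14, and 0 were called in either case.

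For each of the 23 subunits the difference in FLExDUX4 mice was smaller than in WT mice. Tested directly as an interaction, the FLExDUX4 difference minus the WT difference had a median of -0.34, with 23 of 23 below 0, and edgeR called 0 members in either direction, as it did over all genes (0% higher, 0% lower). Unadjusted p values were under 0.05 for 3 subunits: Uqcrc1 at -0.55 ± 0.21, Cyc1 at -0.49 ± 0.22 and Cox6c at -0.47 ± 0.22 (adjusted p = 0.954 for each). The 2 assembly factors with an unadjusted p under 0.05 went opposite ways, Cox10 at -0.84 ± 0.28 and Cox11 at 0.96 ± 0.43 (adjusted p = 0.954 for both). DESeq2 and limma-voom called 0 members as well. Over all 11088 genes, 295 had an unadjusted p under 0.05 on the lower side and 242 on the higher. The median over the 35 tested members, -0.30, was -0.22 without FLExDUX4 running 4, -0.18 without WT running 4 and -0.42 without FLExDUX4 running 2. The 23 values are not independent of one another, since the same mice lead for most subunits.

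Without running, FLExDUX4 mice had slightly higher levels of these subunits than WT mice. The median difference over the 23 subunits was 0.22, with 22 above 0, and 13 had all 3 FLExDUX4 controls above all 3 WT controls, against 5.93% of all tested genes and 5.47% separate in the other direction. None was called by edgeR (0% of all genes were called higher, 0% lower), and the 2 members with an unadjusted p under 0.05 were Cox7a2l (0.47 ± 0.19) and Cox10 (0.55 ± 0.21, adjusted p = 0.969 for both), where 312 of all 11088 genes had such a p and were higher. Cox7a2l was at 38.9, 37.8 and 36.7 CPM in WT controls and 43.3, 57.9 and 56.0 in FLExDUX4 controls. In the same comparison, slow fibre genes had a median difference of 2.42, with 9 of 12 separate and higher. Tendon genes had 1.33, with 5 of 6 separate and higher, endothelial genes 0.57 and red blood cell genes 0.42. Brown fat genes were at -0.52, macrophage genes at -0.26 and fast IIb genes at -0.19, with 2 of 4 fast IIb genes separate and lower. The part of these markers in the result was not tested. This comparison and running in WT mice share the WT controls, and running in FLExDUX4 mice shares the FLExDUX4 controls with it.

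Among runners the order was the other way round. All 23 subunits were lower in FLExDUX4 than in WT runners, with a median of -0.13 and values from -0.24 to -0.01. No member had an unadjusted p under 0.05, edgeR, DESeq2 and limma-voom called 0 members, and the groups overlapped for all 35, where 1.36% of all tested genes were separate and higher and 1.15% separate and lower. The median over the 35 members, -0.11, was -0.03 without FLExDUX4 running 4, -0.01 without WT running 4 and -0.20 without FLExDUX4 running 2. Across all genes, 0% were called higher and 0% lower.

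The subunits moved together from mouse to mouse. Relative to the mean of WT controls, the median subunit of complex III was at 0.59, 0.36, 0.28 and 0.76 in WT runners 1 to 4 and 0.30, 0.59, 0.36 and 0.03 in FLExDUX4 runners 1 to 4 on the log2 scale. For complex IV the values were 0.69, 0.33, 0.38 and 0.81 in WT runners and 0.42, 0.75, 0.50 and 0.15 in FLExDUX4 runners. The mice thus fell in nearly the same order for both complexes. WT running 4 was among the 2 highest WT runners for 23 of 23 subunits and WT running 1 for 22. As a share of all gene counts, complex IV subunits took 0.583% to 0.617% in WT controls, 0.600% to 0.718% in FLExDUX4 controls, 0.687% to 0.983% in WT runners and 0.655% to 0.863% in FLExDUX4 runners. Complex III subunits took 0.307% to 0.316%, 0.308% to 0.390%, 0.351% to 0.517% and 0.335% to 0.443% in the same order. Mitochondrially encoded transcripts, which are part of this total, took 20.9% to 26.4% in WT controls, 20.5% to 29.2% in FLExDUX4 controls, 27.0% to 36.6% in WT runners and 26.6% to 39.8% in FLExDUX4 runners. As a mean share of nuclear counts alone, complex IV subunits took 0.789% ± 0.0322 (SD, n = 3), 0.909% ± 0.0676 (n = 3), 1.25% ± 0.268 (n = 4) and 1.156% ± 0.227 (n = 4) in the same order of groups.

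Slow fibre level and subunit level matched in some mice and not in others. WT runners 1 and 4 and FLExDUX4 running 2 were high for both, and FLExDUX4 running 4 was the lowest of the 8 runners for both. FLExDUX4 running 1, at a slow fibre level of 5.74, had subunits at 0.30 for complex III and 0.42 for complex IV, and FLExDUX4 control 3, at 5.13, had 0.20 and 0.17. WT running 2, at 2.54, had 0.36 and 0.33.

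With the slow fibre level as a covariate in the fit, 0 members were called in any contrast. Over all 11088 genes, 2 were called higher and 0 lower for running in WT mice, against 44 and 11 in the main fit. For the average, 10 were called higher and 2 lower, against 61 and 34. The median over the 35 tested members then was 0.25 instead of 0.50 for running in WT mice, 0.19 instead of 0.22 for running in FLExDUX4 mice, 0.21 instead of 0.33 averaged over genotype, -0.07 instead of 0.20 for genotype in controls, -0.13 instead of -0.11 for genotype in runners and -0.07 instead of -0.30 for the interaction. This covariate itself differed between the groups, so its part and that of running or genotype cannot be told apart.

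**Figure D4:**
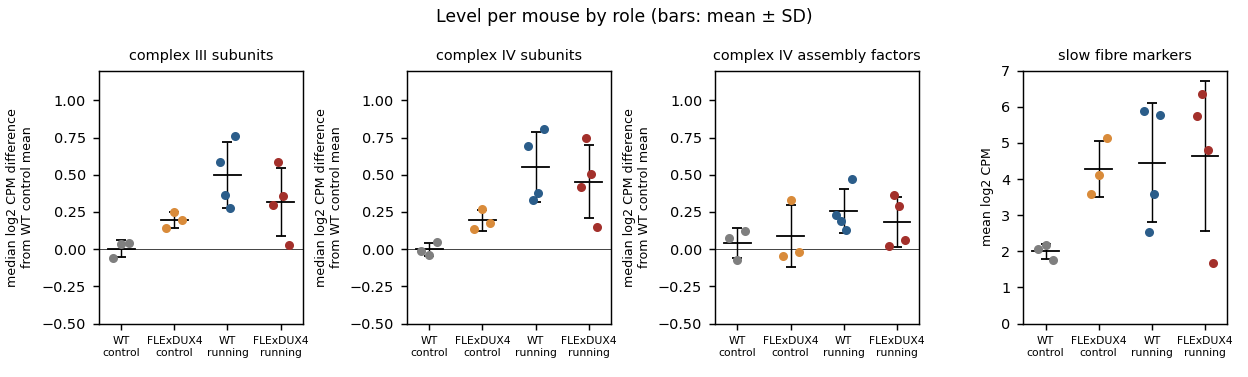
Median log2 CPM difference from the WT control mean over the subunits of complex III, the subunits of complex IV and the assembly factors of complex IV, and mean log2 CPM of 12 slow fibre genes (y axes), for each mouse by group (x axes), with group mean and SD as bars. WT runners 1 and 4 and FLExDUX4 running 2 are high, and FLExDUX4 running 4 low, in both subunit panels and in the slow fibre panel.

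Other cell and fibre type markers also differed between the groups. The 12 tested slow fibre genes had a median difference of 3.08 in WT mice, with 0 called, and their list summed to 50.2 to 66.3 CPM in WT controls, 149.7 to 862 in WT runners, 215 to 549 in FLExDUX4 controls and 69.1 to 1133 in FLExDUX4 runners. The 4 fast IIb genes, Myh4 among them, had a median of -0.63, with all 4 WT runners below the WT controls for each gene. Endothelial markers had a median of 0.90, and their sum was 91.2 to 106 CPM in WT controls, 158 to 257 in WT runners, 127 to 147 in FLExDUX4 controls and 101 to 201 in FLExDUX4 runners. Of the 7 tested, Kdr rose in WT mice (1.21 ± 0.26, adjusted p = 0.0411). Red blood cell genes had a median of 1.12, with sums of 441 to 955, 1134 to 1840.5, 672 to 989.6 and 478 to 1743 CPM in the same order of groups. Macrophage genes had a median of 0.03, tendon genes 0.59 and the 3 tested brown fat genes -0.41, with 4 reads of Ucp1 in all mice. The part of these markers in the results was not tested, and in whole muscle more cells or fibres of a kind and more RNA per cell cannot be told apart.

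Genes around the 36 members were compared in the same fit. Of 25 further assembly and associated genes of complexes III and IV, 24 were tested and 0 were called in any contrast, with a median of 0.08 for running in WT mice and 0.07 averaged over genotype. The 4 with the smallest p in that average were Ndufa4, a subunit now assigned to complex IV, at 0.38 ± 0.10 (adjusted p = 0.0673), Cmc2 at 0.57 ± 0.17 (adjusted p = 0.0863), Fastkd2, a mitochondrial RNA-binding protein, at -0.53 ± 0.20 (adjusted p = 0.213), and Hccs, the lyase that attaches haem to cytochromes c and c1, at 0.54 ± 0.20 (adjusted p = 0.214).

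Of the 4 subunits made in the mitochondrion, mt-Co2 and mt-Co3 had 2 and 3 reads and were not tested. Read counts also depend on how 3′ ends are captured and reads are assigned. These low counts therefore do not show that the 2 genes were not transcribed, and their reason was not tested. For mt-Co1, the catalytic subunit of complex IV, levels rose averaged over genotype (0.49 ± 0.12, adjusted p = 0.0401), with 0.56 ± 0.17 in WT and 0.41 ± 0.17 in FLExDUX4 mice, neither called. The value for mt-Cytb, the cytochrome b of complex III, was 0.43 ± 0.13 averaged over genotype (adjusted p = 0.0853), with 0.40 ± 0.18 in WT and 0.46 ± 0.18 in FLExDUX4 mice.

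In the authors' deposited table, 19 of the 36 members had an adjusted p under 0.05 for WT controls against WT runners, all lower in controls, and 8 had no adjusted p. Of the 3021 genes with an adjusted p there, 5.99% were called lower in controls and 3.91% higher. That table called 0 members in the comparisons of FLExDUX4 controls with FLExDUX4 runners, of the genotypes in controls and of the genotypes in runners. Among all genes, the comparison of FLExDUX4 controls with runners had 3 called higher in controls and 1 lower, of 7532. Each genotype comparison had 1 gene called higher in FLExDUX4 mice and 0 lower, of 22687.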

How the data were processed

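RNA from the triceps of 14 mice was sequenced with a 3′ end method that gives about 1 read per transcript, so levels are not scaled by length. The authors deposited raw read counts per gene and mouse, and the log2 fold changes and adjusted p-values of their own comparisons, per the file headers. Tools named in the submitters' processing notes are cutadapt 1.16, FastQC 0.11.7, STAR 2.5.3a, featureCounts 1.6.2 of Subread and DESeq2, with builds GRCm38 and GRCh38. Annotation release, strand setting and treatment of reads with several alignments are not given in the sources used here.

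Here, 99 spike-in rows were set aside and genes were filtered with filterByExpr (minimum count 10), scaled with TMM factors and tested with edgeR 4.0.16 in R 4.3.3 (robust quasi-likelihood test, 1 mean per group, all 14 mice). P-values were adjusted over 11088 tested genes with the Benjamini-Hochberg method and a gene was called at an adjusted p under 0.05. Log2 differences carry standard errors. Isoform ratios were compared with exact 2-sided permutation tests, adjusted over 20 tests. Both procedures were tested on simulated data. Gene positions come from GENCODE M21 and promoter windows from RefSeq, both on GRCm38.

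Groups were taken from the labels, and replicate numbers follow accession order. Which mice shared a litter is not given, and p-values measure the spread between these mice. No replicate pair agreed within counting noise (lowest chi-square per degree of freedom 5.46). The members and lists were chosen with earlier results of these data known. Values in every mouse are given for members called in at least 1 contrast and for both genes of each isoform pair, other members by range and count, and of each other list at most 4 genes with the smallest p in the running average. Cox7a2l, Cox10 and Cox11 were singled out after their values were seen. Alternatives were DESeq2 1.42.0, limma-voom (limma 3.58.1), a surrogate variable (sva 3.50.0), a slow fibre covariate, other scalings and filters, and leaving out mice. The transgene's own transcript was not analysed here.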

Additional observations from a re-analysis of the deposited data

Results flagged for a closer look

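In groups of 4 mice, a value was marked where its gap to the nearest of the others exceeded 0.829 of the group's range, and 3 of 78 groups were marked, where chance marks about 1 in 20. FLExDUX4 running 3 had 18.1 CPM of Cox11, and the other 3 FLExDUX4 runners 11.03 to 11.7. FLExDUX4 running 4 had 7.70 CPM of Cox15, which acts after Cox10 in haem A synthesis, and the others 12.9 to 13.8. WT running 3 had a log2 count ratio of Cox6a2 to Cox6a1 of 5.22, and the other WT runners 5.56 to 5.60.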

How the results depend on the processing

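The 6 members called for running in WT mice became 13 with DESeq2, 0 with limma-voom, 0 with the slow fibre level as a covariate, 2 with upper quartile factors, 26 with library sizes from the spike-ins, 13 with no low-count filter, 1 with no robust estimate and 2 with only the groups compared. The 7 called for the running average became 11 with DESeq2, 5 with limma-voom, 0 with the slow fibre covariate and 23 with spike-in sizes. They became 13 with no low-count filter and 1 without FLExDUX4 control 1 and WT running 2 together. The cause of these changes was not tested. Over all genes, 44 of 11088 were called higher for running in WT mice, against 143 of 7648 with DESeq2 and 16 with limma-voom. The number was 2 with the slow fibre covariate, 39 with upper quartile factors and 602 with spike-in sizes. It was 154 of 20938 with no low-count filter, 64 with no robust estimate and 44 of 10215 with only the groups compared. For the average, 61 of 11088 genes were called higher, against 174 of 7003 with DESeq2, 37 with limma-voom and 10 with the slow fibre covariate. Spike-in sizes gave 419, no low-count filter 191 of 20938, and leaving out FLExDUX4 control 1 and WT running 2 together 11 of 11464. Leaving out each mouse in turn gave 0 to 12 members for running in WT mice and 0 to 15 for the average. The other 4 contrasts kept a count of 0 in all settings run. The fit on only the groups compared gives no value for the average or the interaction. Spike-in sizes moved the median of all genes to 0.37 for running in WT mice, 0.21 for the average, 0.31 for genotype in controls and -0.32 for the interaction. The members' medians were then 0.87, 0.53, 0.52 and -0.65, and each contrast's median kept its sign under every scaling. With 1 mouse left out, the Cox7a1 to Cox7a2 log2 ratio difference ranged from 0.26 to 0.34, Cox6a2 to Cox6a1 from -0.17 to -0.05, Cox4i2 to Cox4i1 from -0.87 to -0.13 and Cox8b to Cox8a from -0.17 to 0.19, with a changed sign in 5 of 14 fits. No paired analysis was possible because the replicate numbers only follow accession order. With 3 or 4 mice a group and adjusted p values near 0.05, single calls carry little weight, and low counts limit Cox16, Sco1 and Cox4i2.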
